A study of Drosophila melanogaster with 12 samples.

Results

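The clock of Drosophila runs on a transcription factor pair, CLOCK (CLK) and CYCLE, that switches on its own repressor genes period (per) and timeless (tim). How long the repressor proteins PER and TIM last is set after translation. Kinases phosphorylate them, phosphatases remove the phosphates, and F-box proteins hand the phosphorylated forms to ubiquitin ligases for destruction. The genes described here encode 10 such regulators: dco, CkIIalpha, CkIIbeta, sgg, nmo, slmb, jet, tws, wdb and mts, chosen by their known function and not by any measured value. Of the 10, 5 have probe sets named in the annotation used here, the same 5 on both array designs, with 6 probe sets on each, among 11982 and 10844 named genes. These are the kinase gene dco, the F-box genes slmb and jet, and the phosphatase subunit genes tws and wdb. CkIIalpha, CkIIbeta, sgg, nmo and mts were not analysed here.

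RNA came from heads of flies expressing CLKGR, which in fly work denotes CLK joined to the ligand-binding region of the glucocorticoid receptor, which dexamethasone (DEX) activates. Both arms received cycloheximide (CHX), a blocker of protein synthesis, and the arms differ in DEX against vehicle (V), so the design asks which genes respond to CLK. A table of 8 arrays holds 1 vehicle and 2 DEX arrays at Zeitgeber time (ZT, hours after lights on) 4, 2 vehicle and 2 DEX arrays at ZT16, and 1 vehicle array with no labelled time, and a table of 4 arrays of another design holds 2 vehicle and 2 DEX arrays with no labelled time. The labels give no age, sex, dose, or driver of CLKGR, and every group, the vehicle arms included, carries CLKGR and received CHX. Nothing in the labels says that replicates were separate groups of flies, so p-values measure only the spread between arrays, which may be technical, and the number of arrays limits their precision.

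Levels are on the log2 scale, taken as the natural log of the deposited GCRMA values. Median levels per array, over probe sets kept for testing, ranged from 3.45 to 3.51 in the table of 8 and from 3.43 to 3.51 in the table of 4. Replicate 1 of ZT16 vehicle resembled its companions least, with an average r of 0.945 where the next array had 0.952. Eye tissue was seen in every array: the 4 measured photoreceptor markers had mean levels of 6.98 or more on the 8-array table and 8.59 or more on the 4-array table. In whole heads, fewer cells of a type and less RNA per cell cannot be told apart.

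The kinase gene dco (doubletime) encodes casein kinase 1 delta/epsilon, which phosphorylates PER and so marks it for destruction. On the 8-array table dco read 6.52 on the ZT4 vehicle array, 6.24 and 6.50 on the ZT4 DEX arrays, 6.50 and 6.95 on the ZT16 vehicle arrays, 6.68 and 6.04 on the ZT16 DEX arrays, and 7.0 on the vehicle array without a time. All 8 levels stood well above 2.78, the level of the filter on dim probe sets. The highest value belonged to a vehicle array and the lowest to a ZT16 DEX array, but the arms overlapped. On the 4-array table dco read 4.38 and 5.21 with vehicle and 5.11 and 5.31 on the arrays labelled DEX, again with overlap.

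The F-box gene slmb encodes the beta-TrCP homolog that recognises phosphorylated PER. It read 4.08 on the ZT4 vehicle array, 4.16 and 4.28 on the ZT4 DEX arrays, 4.58 and 4.07 on the ZT16 vehicle arrays, 3.61 and 3.98 on the ZT16 DEX arrays, and 3.97 on the vehicle array without a time. At ZT16 both DEX arrays lay below both vehicle arrays, as did 13.8% of all kept probe sets. At ZT4 both DEX arrays lay just above the single vehicle array, and the share of probe sets ordered so was not counted. On the 4-array table slmb read 3.34 and 3.68 with vehicle and 3.22 and 3.40 on the arrays labelled DEX. These overlapped and lay close to the filter level of 2.92 on that table.

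The F-box gene jet (jetlag) takes part in the destruction of TIM after light. It was dim on both designs: its 8 levels ran from 2.47 to 2.82 with a median of 2.50, and the 4 levels on the other table from 2.18 to 2.28. It is the gene of the 5 that did not pass the filter on dim probe sets, so only its levels are given, and a level this low does not show whether the transcript was present.

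The genes tws and wdb encode regulatory B subunits of protein phosphatase 2A (PP2A), which steer the enzyme to PER. On the 8-array table tws read 3.41 on the ZT4 vehicle array, 3.65 and 3.28 on the ZT4 DEX arrays, 3.43 and 3.10 on the ZT16 vehicle arrays, 3.22 and 3.10 on the ZT16 DEX arrays, and 3.20 on the vehicle array without a time. These values span only 0.56 in all, and the arms overlapped at each time. Both ZT16 DEX arrays lay below both ZT4 DEX arrays, as did 16.8% of all kept probe sets. On the 4-array table the brighter of its probe sets read 3.55 and 3.43 with vehicle and 3.91 and 3.44 on the arrays labelled DEX, so the groups overlapped. The dimmer one read 3.27 and 3.12 against 3.03 and 3.08, lower on both arrays labelled DEX, as were 31.4% of all kept probe sets of that table.

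Among the 5 genes wdb (widerborst) had the widest range on the 8-array table, 1.22. It read 4.63 on the ZT4 vehicle array and 4.64 on the vehicle array without a time. The ZT4 DEX arrays had 3.42 and 3.69, the ZT16 vehicle arrays 3.48 and 3.64, and the ZT16 DEX arrays 3.46 and 3.88. Thus 2 vehicle arrays were high and the other 6 arrays lay within 0.46 of each other. The second probe set of wdb did not share this pattern, but on most arrays it lay just above the filter level of 2.78. A probe set so dim may not register such a difference. It read 2.88 on the ZT4 vehicle array and 2.91 on the vehicle array without a time, between 2.89 and 2.94 on 5 further arrays, and 3.33 on ZT16 vehicle replicate 1. On the 4-array table wdb ran from 3.20 to 3.39.

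**Figure D1:**
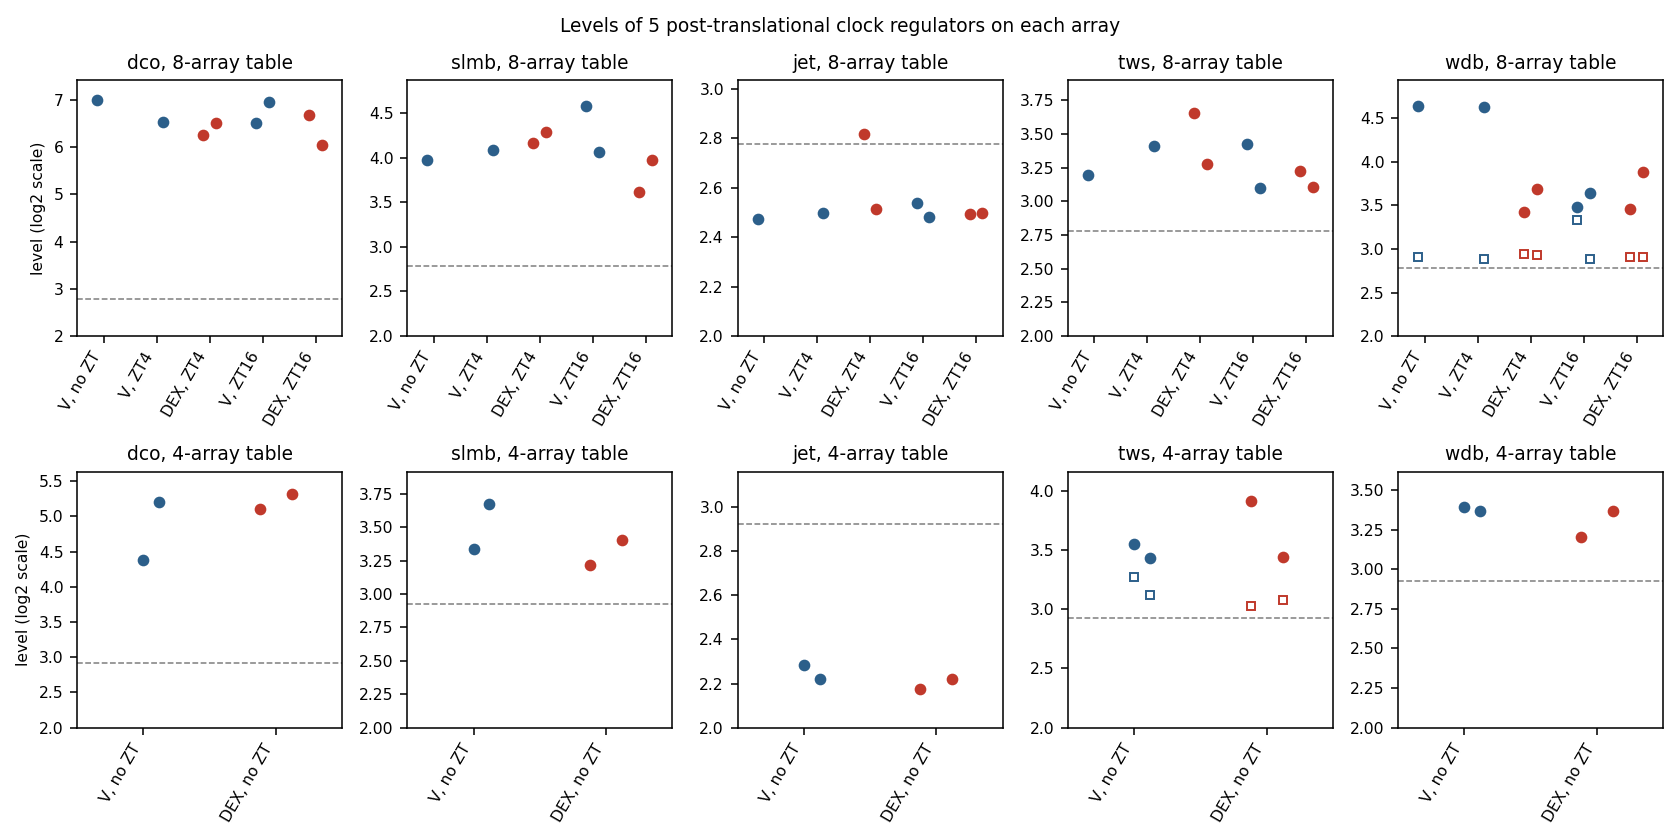
Level of each gene (log2 scale, vertical axis) on every array, by group (horizontal axis), for the 8-array table (top) and the 4-array table (bottom); blue is vehicle, red is DEX, open squares are a second probe set, and the dashed line is the filter level of 2.78 or 2.92. Vehicle and DEX points overlap for most genes, and wdb has 2 vehicle arrays at 4.63 and 4.64 above the rest.

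The DEX effect on the timed arrays asks whether these genes respond when CLK is activated without new protein. None of the 4 genes kept for testing passed an adjusted p of 0.05 in limma, where 0% of the 11261 kept probe sets did. At an unadjusted p under 0.05 there were 0 of the 4, against 3.39% of all kept probe sets. The fitted changes of dco, slmb and wdb were negative, and that of tws was close to 0 with no settled sign, since its plain arm means were 3.31 with DEX and 3.31 with vehicle. That of wdb was 0.11 when the ZT4 vehicle array was left out. For dco the log2 change was -0.28 ± 0.25 (SE), with a 95% interval from -0.86 to 0.31. For slmb it was -0.26 ± 0.22 (-0.78 to 0.26), for tws -0.04 ± 0.14 (-0.37 to 0.30) and for wdb -0.37 ± 0.27 (-1.003 to 0.27). The limma adjusted p-values were 0.994 to 0.998, and the arms overlapped for each gene, while 4.51% of all kept probe sets had arms that did not overlap. The second probe set of wdb, close to the filter level, gave -0.10 ± 0.12.

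In this additive fit of time and treatment the upper ends of the intervals correspond to a rise of 1.24-fold for dco, 1.20-fold for slmb, 1.23-fold for tws and 1.21-fold for wdb. Within a time, the limits at ZT4 were 1.88-fold for dco, 1.89-fold for slmb and 1.56-fold for tws. At ZT16 they were 1.41-fold for dco, 1.08-fold for slmb, 1.30-fold for tws and 1.57-fold for wdb. The interval of wdb at ZT4 lay below 0, against the single ZT4 vehicle array. On the 4-array table the limits reached 2.26-fold, for dco. The core clock genes on the timed arrays give the scale of a response. The level of tim was 6.70 on the ZT4 vehicle array and 10.58 and 10.30 on the ZT4 DEX arrays, 5.49 and 6.43 on the ZT16 vehicle arrays, and 9.42 and 8.21 on the ZT16 DEX arrays. All 4 DEX arrays lay above all 3 vehicle arrays, with a log2 change of 3.21 (95% interval 2.27 to 4.15). The intervals of per (1.82 to 3.45) and of the repressor gene vri (0.91 to 2.31) also lay above those of the 4 regulators. Adjusted over all probe sets, none of these clock genes passed either (limma adjusted p 0.304 for tim and per, 0.856 for vri). The remaining core clock genes had changes of 1.40 (cwo, a repressor), 0.30 (Pdp1), -0.35 (Clk), -0.33 (cyc) and -0.06 (cry).

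**Figure D2:**
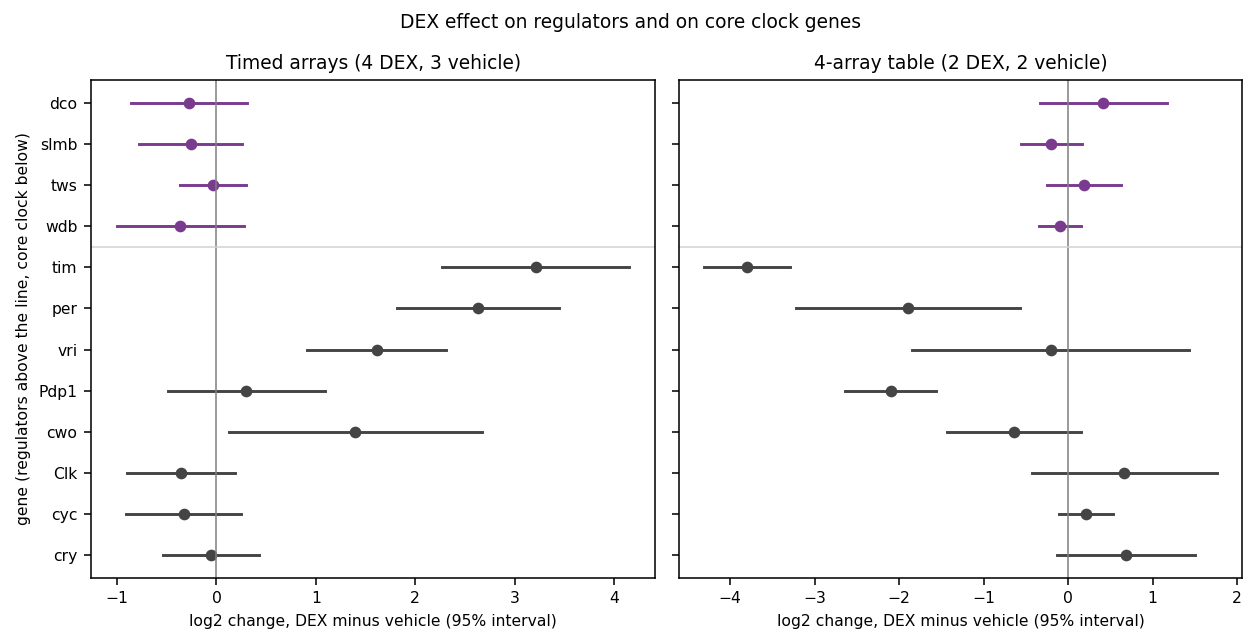
Log2 change with DEX (horizontal axis; points with 95% intervals from limma) for the 4 tested regulators and the 8 core clock genes (vertical axis), on the timed arrays (left) and the 4-array table (right). On the left tim, per and vri lie to the right of the regulators, whose intervals all include 0; on the right tim, Pdp1 and per lie to the left, at -3.80, -2.10 and -1.90.

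On the 4-array table, tim was lower on the arrays labelled DEX, 3.98 and 4.05 against 7.87 and 7.77 with vehicle, a log2 change of -3.80 (limma adjusted p 0.0246), opposite to the timed arrays. That call was lost when vehicle replicate 2 was left out (-3.85, limma adjusted p 0.239) and when replicate 3 was (-3.75, limma adjusted p 0.312). The vehicle array named replicate 3 here has no replicate number in its label. Directions below are those of the arrays labelled DEX. None of the 4 tested regulators passed limma's test over all 8379 kept probe sets, of which 0.0119% passed. None had an unadjusted p under 0.05, against 5.42% of all. The change of dco was 0.42 ± 0.30 (SE), with a 95% interval from -0.34 to 1.17, falling to 0.0046 when vehicle replicate 3 was left out and growing to 0.83 when vehicle replicate 2 was. For slmb it was -0.20 ± 0.15 (-0.56 to 0.16), for tws 0.19 ± 0.17 (-0.25 to 0.62) and for wdb -0.09 ± 0.10 (-0.34 to 0.15). The dimmer probe set of tws had -0.14 ± 0.08. Groups overlapped for all 4 genes by their brighter probe sets, while they did not for 43.5% of all kept probe sets. Each interval lay apart from that of the brightest tim probe set (-4.31 to -3.30) and from that of Pdp1 (-2.64 to -1.56). The change of Pdp1 was -2.10 here (limma adjusted p 0.148) and 0.30 on the timed arrays. Another tim probe set gave -2.11 (-2.73 to -1.48). A further one, close to the filter level, gave -0.14 (-0.35 to 0.07), which overlapped the intervals of the regulators. The change of tim had opposite directions on the timed arrays and on this table, and the cause, label order included, was not tested. No change of the 4 tested regulators passed on either, so their signs were not compared between the tables.

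Set against each other, DEX effects at ZT4 and ZT16 differed by most for wdb. At ZT4 its change was -1.08 ± 0.27 (SE), 2.11-fold lower with DEX, with an unadjusted p of 0.00752. That made 1 of the 4 genes with an unadjusted p under 0.05, against 4% of all kept probe sets, and the limma adjusted p was 0.799 over all of them (0% passed). It rests on the single ZT4 vehicle array at 4.63, which is assumed to vary like the other groups. At ZT16 the change of wdb was 0.11 ± 0.22, where 0% of probe sets passed and 2.8% had an unadjusted p under 0.05. The difference between the times was 1.19 ± 0.35, with a limma unadjusted p of 0.0149 and a limma adjusted p of 0.997. Here too 1 of the 4 genes, wdb, had an unadjusted p under 0.05, against 2.72% of all kept probe sets, and 0% passed. This difference also rests on the single ZT4 vehicle array. The second probe set of wdb, close to the filter level, gave 0.05 ± 0.19 at ZT4 and -0.20 ± 0.15 at ZT16. The mean level of the 5 fat body markers was 11.2 on the ZT4 vehicle array and 10.002 to 10.6 on the ZT4 DEX arrays. At ZT16 it was 10.3 to 11.2 with vehicle and 11.08 to 11.12 with DEX. On the vehicle array without a time, where wdb read 4.64, these markers had a mean of 10.5. Their median change with DEX was -0.55 at ZT4 (1 of 5 positive) and 0.28 at ZT16 (5 of 5 positive), and their part in the wdb values was not tested.

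For slmb the DEX effect was 0.14 ± 0.32 (SE) at ZT4 and -0.52 ± 0.26 at ZT16 (limma adjusted p 0.976 at ZT16). The difference was -0.66 ± 0.41, with a 95% interval from -1.67 to 0.34 and a limma adjusted p of 0.997. Both DEX arrays lay below both vehicle arrays at ZT16, as did 13.8% of all kept probe sets. The ZT16 change shrank to -0.27 when vehicle replicate 1 was left out and grew to -0.78 when replicate 2 was. The DEX effects of dco were -0.14 ± 0.43 at ZT4 and -0.37 ± 0.35 at ZT16, and those of tws 0.05 ± 0.24 and -0.10 ± 0.19.

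The time effect, ZT16 against ZT4 over both arms, asks whether the transcripts of these regulators differ between night and day. None of the 4 tested genes passed limma's test (0% of all probe sets did), and none had an unadjusted p under 0.05, against 3.57% of all. The change of dco was 0.07 ± 0.25 (SE; 95% interval -0.51 to 0.66). That of slmb was -0.16 ± 0.22 (-0.68 to 0.36), that of tws -0.24 ± 0.14 (-0.58 to 0.09) and that of wdb -0.36 ± 0.27 (-0.999 to 0.28). The groups of each gene overlapped, while those of 4.69% of all kept probe sets did not. The lower ends of these intervals correspond to 1.42-fold less dco, 1.60-fold less slmb, 1.49-fold less tws and 2.00-fold less wdb at ZT16. On the same arrays tim had -1.27 ± 0.40, per -0.40 ± 0.35 and vri -0.54 ± 0.30 (limma adjusted p 0.990 for each). The photoreceptor markers were higher at ZT16, with array means of 7.32 to 8.05 against 7.08 to 7.11 at ZT4, and their part in these values was not tested.

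Within the DEX arm, slmb was lower on both ZT16 arrays than on both ZT4 arrays, by -0.42 ± 0.26 (SE), and tws by -0.30 ± 0.19. Of all kept probe sets 16.8% were lower on both ZT16 arrays in the DEX arm, 0.00888% passed and 3.35% had an unadjusted p under 0.05, as 0 of these 4 genes did. The changes of dco and wdb there were -0.02 ± 0.35 and 0.11 ± 0.22. Within the vehicle arm wdb had -1.07 ± 0.27, again against the single ZT4 vehicle array (unadjusted p 0.00763, limma adjusted p 0.998). The second probe set of wdb, close to the filter level, had 0.22 ± 0.19 there and 0.08 ± 0.12 for time over both arms. It read 3.33 and 2.89 on the ZT16 vehicle arrays against 2.88 on the ZT4 vehicle array. The share of probe sets ordered so was not counted. In the vehicle arm 0% of probe sets passed and 3.49% had an unadjusted p under 0.05. In the same arm dco had 0.21 ± 0.43, slmb 0.24 ± 0.32 and tws -0.15 ± 0.24. Ordered by level, the groups put the first probe set of wdb highest in ZT4 vehicle, with the other timed groups between 3.55 and 3.67 and overlapping. The order for slmb was ZT16 vehicle (4.32), ZT4 DEX (4.22), ZT4 vehicle (4.08) and ZT16 DEX (3.80), with the single ZT4 vehicle array below both ZT4 DEX arrays and above both ZT16 DEX arrays, and the first pair of groups overlapping. For dco it was ZT16 vehicle (6.73), ZT4 vehicle (6.52), ZT4 DEX (6.37) and ZT16 DEX (6.36). The single ZT4 vehicle array lay just above both ZT4 DEX arrays, and other neighbours overlapped. The shares of probe sets with such orders against this single array, here or for slmb and wdb, were not counted. For tws the order was ZT4 DEX (3.47), ZT4 vehicle (3.41), ZT16 vehicle (3.26) and ZT16 DEX (3.16), and all neighbours overlapped.

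**Figure D3:**
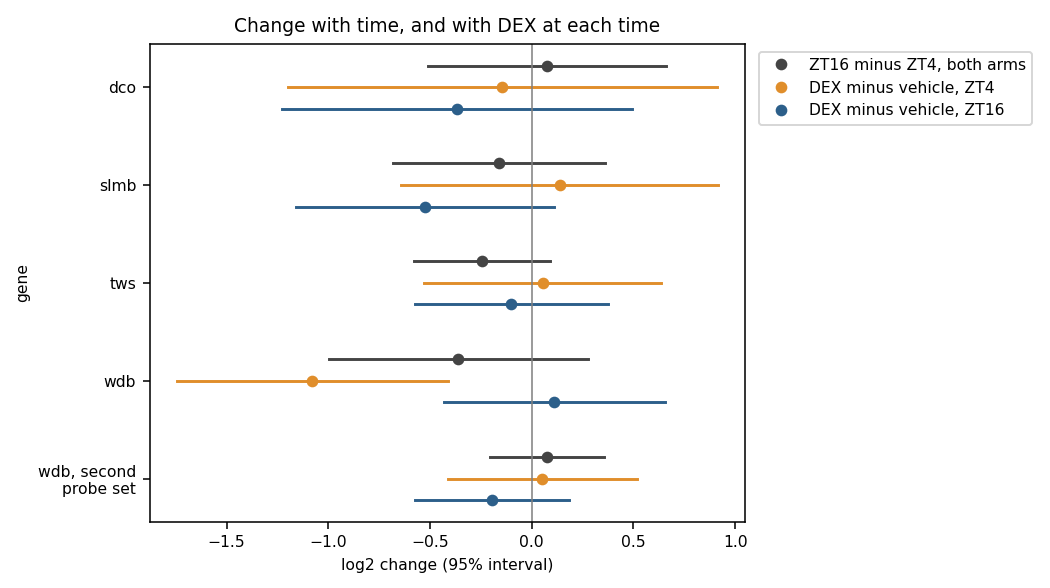
Log2 change (horizontal axis; points with 95% intervals from limma) of the tested genes and of the second wdb probe set (vertical axis), for ZT16 minus ZT4 over both arms and for DEX minus vehicle at each time. All intervals include 0 except that of the first wdb probe set at ZT4, at -1.08, where the vehicle group is 1 array.

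Further genes were described from lists of related complexes, families and modifiers of clock proteins, 28 of them kept on the timed arrays apart from the 10 regulators. With DEX on the timed arrays 16 of these 28 were higher and 12 lower, with a median change of 0.01, against -0.01 over all kept probe sets and -0.27 over the 4 tested regulators. None passed limma's test (0% of all), and 0 of 28 had an unadjusted p under 0.05, against 3.39% of all. Changes ran from -0.30 to 0.46, below those of tim, per, vri and cwo.

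The ubiquitin ligase that slmb and jet serve is the SCF complex. Its list had 7 measured genes, slmb included, 5 of them positive, with a median of 0.12. The F-box gene ago had 0.32 ± 0.15 (SE) and Nedd8, the modifier that activates cullins, 0.35 ± 0.18, both higher on all 4 DEX arrays than on all 3 vehicle arrays, as were 1.99% of all probe sets. Neither passed (limma adjusted p 0.994). Among the 5 measured PP2A genes, with a median of -0.12 and fitted changes at or below the -0.04 of tws, the subunit gene with the smallest p apart from tws and wdb was Cka at -0.20 ± 0.23. The 4 measured genes of protein phosphatase 1, another phosphatase of clock proteins, had a median of 0.14, with flw and sds22 close to 0 (0.0053 and 0.0057) and the catalytic subunit genes Pp1-87B at 0.42 ± 0.23 and Pp1alpha-96A at 0.27 ± 0.19. Of the casein kinase 1 relatives of dco, gish had -0.08 ± 0.21. In the casein kinase 2 list CkIIalpha-i3 had 0.03 ± 0.06, and the scaffold gene Axn, the 1 measured gene of the list of GSK3 and its partners, had -0.02 ± 0.10. Among the 10 other modifiers of clock proteins, 5 positive and 5 negative, BRWD3, linked to the turnover of cryptochrome, had 0.34 ± 0.18 and the kinase gene p38a 0.26 ± 0.21.

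For time, 13 of the 28 were higher at ZT16 and 15 lower, with a median of -0.01 against 0.02 over all kept probe sets. The 1 gene of the 28 with an unadjusted p under 0.05, against 3.57% of all, was BRWD3, at -0.54 ± 0.18 (SE; limma adjusted p 0.990), and lower on all 4 ZT16 arrays than on all 3 ZT4 arrays, as were 2.25% of all probe sets. Its change was -0.24 without the ZT4 vehicle array. In the other lists the smallest p belonged to ago at -0.24 ± 0.15, flw, a catalytic subunit gene of protein phosphatase 1, at 0.19 ± 0.22, and Ptpa, an activator of PP2A, at -0.18 ± 0.23, with CkIIalpha-i1 at -0.18 ± 0.16, gish at 0.15 ± 0.21 and Axn at 0.03 ± 0.10. Of the 28 measured with the other design, 14 were higher and 14 lower under the DEX label. Their median change was 0.0047 against -0.05 over all kept probe sets. Of these 28, 1 had an unadjusted p under 0.05, against 5.42% of all, and none passed. That gene was CkIIbeta2 at -0.21 ± 0.08, named after its value was seen.

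**Figure D4:**
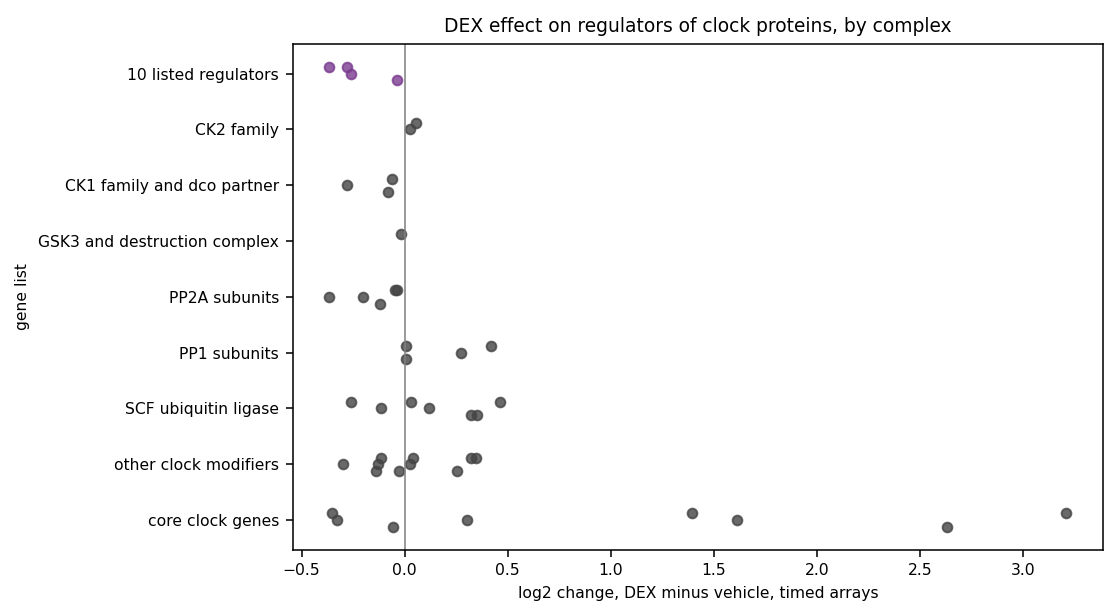
Log2 change with DEX on the timed arrays (horizontal axis) of each measured gene, by list (vertical axis); genes can stand in more than 1 list. The regulators and the genes of the related lists lie between -0.37 and 0.46, while 4 core clock genes lie at 1.40 or above.

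The genes with profiles most like that of dco over the 7 timed arrays were CG5177, mRpL15, a mitochondrial ribosomal protein gene, and CG10874. Likeness was the root mean square difference of levels centred on each gene's mean, 0.071, 0.073 and 0.074, against a median of 0.33 over the 7970 other kept genes and an SD of dco itself of 0.29.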

How the data were processed

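Total RNA of fly heads was measured on 12 Affymetrix arrays of 2 designs. The deposited intensity values were made by the authors with GCRMA, per the submitters' processing notes, with no version or settings. The highest deposited values, 5374153 and 3300359, exceed the 65535 of a 16-bit scanner, while natural logs of the deposited values reach 15.5 and 15.0, so the natural log was read as the log2 level. This scale was chosen from the values, as no label states it. With log2 instead, changes and errors would be 1.443 times as large and p-values the same.

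Control probe sets were dropped, leaving 18769 and 13966. Probe sets with a mean above the 40th percentile were kept, 11261 and 8379. Names come from the platform annotation (13647 and 12443 probe sets with 1 gene, 402 and 327 with several, 4720 and 1196 with none), updated through a RefSeq gene table (Release 6 plus ISO1 MT) that held 13544 and 12394 of them. A gene is represented by its brightest probe set. No coordinates are given, since no build is named with the data.

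Differences were tested with limma 3.58.1 (R 4.3.3), with a trended eBayes and Benjamini-Hochberg adjustment over kept probe sets at a threshold of 0.05. Time and treatment were additive terms over the 7 timed arrays; effects within a time or arm came from 1 mean per group. The 2 tables were never fitted together. The fit was tested on simulated data. Members, lists and tests were chosen with earlier results of these data known. Text names every regulator and core clock gene, and from each further list the genes with the smallest p. Same-numbered arrays did not deviate together (correlations -0.24 to 0.073), so replicate numbers were not taken as pairs. Alternatives changed the filter, normalization, trend, array weights, probe set choice, time term, replicate block and arrays.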

Additional observations from a re-analysis of the deposited data

Results flagged for a closer look

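The level of jet on ZT4 DEX replicate 1 was 2.82, whereas the other DEX arrays of the 8-array table lay between 2.50 and 2.51. The gap is 0.946 of the range of the 4 arrays, above Dixon's critical value for sets of that size. It is 1 of 10 sets of 4 arrays examined, and chance marks about 1 in 20 such sets. The level is just above the filter level of 2.78.

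For slmb every DEX array lay above the single vehicle array at ZT4 and below the vehicle arrays at ZT16. At ZT16 13.8% of all kept probe sets were lower in this way, and the share at ZT4 was not counted. The difference of the DEX effects was -0.66, and its test gave a limma adjusted p of 0.997.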

How the results depend on the processing

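The count of tested regulators past the threshold was 0 in each of the 8 comparisons, where at most 0.0119% of all kept probe sets passed. At so low a share a count of 0 does not set these genes apart from other probe sets. The count was also 0 under all 116 alternatives, arrays left out included (0 to 0). With the replicate block the count was 0 as well, with changes of -0.28 for dco and -0.28 for slmb with DEX on the timed arrays, and the block changed no call. No paired analysis was possible on the 4-array table because its groups share 1 replicate number. The change of tws with DEX on the timed arrays turned sign with array weights (0.050), over all 8 arrays (0.032) and without a time term (0.00234). That of Axn turned with quantile normalization (0.012) and median centring (0.0010), and that of wdb at ZT16 with the median over its probe sets (-0.043). Over single arrays left out, changes with DEX on the timed arrays ran from -0.42 to -0.10 for dco, -0.52 to -0.066 for slmb, -0.11 to 0.059 for tws, -0.59 to 0.11 for wdb (0.11 without the ZT4 vehicle array), -0.084 to 0.59 for Pdp1, -0.20 to 0.14 for cry, -0.0096 to 0.062 for CkIIalpha-i3, -0.21 to 0.040 for gish and -0.091 to 0.035 for Axn. Those of Pp1-87B ran from 0.24 to 0.55, Pp1alpha-96A from 0.098 to 0.40, Cka from -0.36 to -0.027, p38a from 0.11 to 0.37 and BRWD3 from 0.20 to 0.64. Time effects ran from -0.42 to -0.0024 for slmb, -1.63 to -0.88 for tim, -0.82 to -0.014 for per, -0.78 to -0.24 for vri, -0.065 to 0.26 for dco, -0.59 to 0.11 for wdb, -0.34 to 0.0046 for CkIIalpha-i1, -0.040 to 0.085 for Axn and -0.29 to 0.056 for Ptpa. The change of wdb ran from -0.099 to 0.32 at ZT16 and from -0.095 to 0.32 with time in the DEX arm, that of slmb with time in the vehicle arm from -0.017 to 0.49, and on the 4-array table that of tws from -0.047 to 0.42 and that of vri from -1.20 to 0.79. The causes were not tested. The change of tim passed without ZT16 DEX replicate 2 (3.60), and so did those of per (3.01) and vri (1.92). On the 4-array table tim no longer passed with quantile normalization (limma adjusted p 0.220), median centring (0.199) or array weights (0.0504), nor without either vehicle array. Pdp1 passed on the 4-array table without the filter on dim probe sets (limma adjusted p 0.00382). Over single arrays left out of that table its change ran from -2.35 to -1.85, and that of per from -2.71 to -1.09. On the 8-array table jet lies below the filter level on most arrays, and tws and the second probe set of wdb just above it.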
